A study of Bos taurus with 38 samples.

Results

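ACVR1B (ENSBTAG00000013555) encodes the activin A receptor type 1B, also called ALK4. It was 1 of 27607 genes counted in the longissimus dorsi (LD) muscle of 38 newborn beef calves, and 1 of 12964 that passed the filter on low counts. It was chosen because, among genes with a symbol, it had the smallest p for the difference between calves of dams supplemented late in pregnancy and control calves. Its differences between supplemented groups and controls are therefore given as a description, with a fold change and standard error (SE) and with no test. That p came from a fit that also held dam age and offspring sex and that used the spread of calves within groups, so the values of ACVR1B for these are a description too. Tests are given for ACVR1B in TR2 vs. TR1, for the interaction of sex and treatment, and for its correlations with other measures within groups. The interaction draws on the same calves and the same spread, so its outcome is partly fixed by the choice.

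The dams were Angus and Angus-cross cows. Control dams (CTR, n = 10 calves) received no selenium (Se) yeast. Dams of the other groups received Se-yeast boluses for 13 weeks in the first (TR1, n = 9), second (TR2, n = 10) or last trimester (TR3, n = 9), at 3 boluses and 105 mg Se per week. All cows, the controls included, had access to a mineral with 120 mg/kg Se from sodium selenite. The calves were biopsied soon after birth, and each library came from a different calf. By the labels, 4 CTR, 2 TR1, 3 TR2 and 5 TR3 calves were female. The study's methods give fewer females among the CTR calves than these labels do, so the sex of a CTR calf is in doubt. Sex entered the fits as labelled. Dams of the CTR calves were 6.9 years old on average, those of TR1 6.33, those of TR2 7.0 and those of TR3 5.89. In these whole-muscle samples, fewer cells of a type and less RNA per cell cannot be told apart.

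Activins, myostatin and GDF11 bind a type II receptor at the cell surface, which then recruits and phosphorylates a type I receptor such as ACVR1B. The activated type I receptor phosphorylates SMAD2 and SMAD3, which enter the nucleus with SMAD4 and regulate transcription. In skeletal muscle this branch restrains myoblast differentiation and fibre growth, and follistatin, which binds activins and myostatin, releases that restraint. The gene reference, which is of another genome build than the counts and was used for names and order only, places ACVR1B between TAMALIN and ACVRL1, which encodes another type I receptor of the same superfamily, with 0 genes overlapping it.

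ACVR1B was counted from few reads in this muscle. Its raw count lay between 27 and 86 per calf, in libraries of 12921223 to 17471666 counts. Its mean level was 3.41 CPM (counts scaled to a common library size with TMM factors), above 26.7% of the genes tested on that scale, which is not corrected for gene length. The variation between calves that remained after the fit, expressed as a biological coefficient of variation, was 0.213, compared with a median of 0.247 over all genes tested and of 0.280 over the 500 genes nearest to it in level. A choice by smallest p favours genes of low variation, so these values are partly fixed by the choice.

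In CTR calves, ACVR1B ranged from 2.08 to 4.09 CPM, with a median of 2.90 and a mean of 2.87 ± 0.542 (SD, n = 10). In TR1 calves it ranged from 1.83 to 4.57 CPM, with a median of 3.19 and a mean of 3.30 ± 0.943 (SD, n = 9). In TR2 calves it ranged from 2.27 to 5.19 CPM, with a median of 3.46 and a mean of 3.54 ± 1.00 (SD, n = 10). The means and the medians were both ordered CTR, TR1, TR2 and TR3, with TR3 calves between 2.27 and 6.00 CPM, a median of 3.69 and a mean of 3.96 ± 1.01 (SD, n = 9). Each gap between neighbouring group means in this order was smaller than the SD of either neighbour, and all 4 groups overlapped.

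The CTR calves lay close together. Apart from calf A2042 at 4.09 CPM, no CTR calf exceeded 3.12 CPM. The CTR median was exceeded by 6 of 9 TR1 calves, 7 of 10 TR2 calves and 8 of 9 TR3 calves. Above the highest CTR calf lay 3 TR1, 2 TR2 and 3 TR3 calves. The highest level of all was found in the TR3 female A2065, at 6.00 CPM (95% exact Poisson interval 4.80 to 7.41), and the lowest in the TR1 female A2047, at 1.83 CPM (1.21 to 2.67). These intervals cover counting error only. Counting error alone corresponded to 70.5% of the variance between CTR calves, against 25.6% in TR1, 24.8% in TR2 and 27.5% in TR3.

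**Figure D1:**
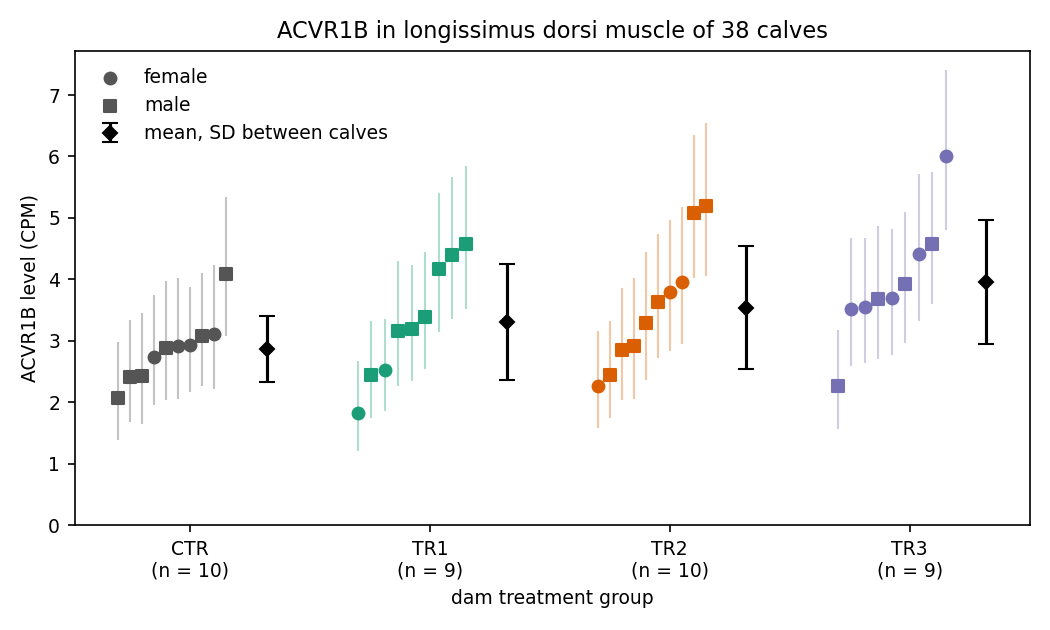
ACVR1B level in CPM (vertical axis) in each of the 38 calves, sorted within the 4 treatment groups, with circles for females and squares for males. Thin bars are 95% exact Poisson intervals of single calves, and diamonds with bars are group means with the SD between calves. CTR calves sit between 2.08 and 4.09 CPM, and the TR3 calves, apart from 1 calf at 2.27 CPM, between 3.52 and 6.00 CPM.

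Adjusted for dam age and sex, the level of ACVR1B in TR3 calves was higher than in CTR calves by 0.62 on the log2 scale (SE 0.17). The corresponding log2 fold changes were 0.23 (SE 0.17) in TR1 vs. CTR and 0.28 (SE 0.16) in TR2 vs. CTR. These 3 comparisons share the CTR calves and were not independent of each other. TR3 calves were higher than TR1 calves by 0.39 (SE 0.17) and higher than TR2 calves by 0.34 (SE 0.17) on the same scale. With treatment group as the only term, the log2 fold change of TR3 vs. CTR was 0.46 (SE 0.17). Differences of group means were also taken on variance-stabilized values, without adjustment for dam age or sex. From each gene's difference the mean over all genes was subtracted, and the result was divided by their SD. On that scale ACVR1B stood at 0.745 in TR1, 1.03 in TR2 and 2.46 in TR3 vs. CTR.

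Leaving out 1 calf at a time gave log2 fold changes of TR3 vs. CTR from 0.54, without the highest TR3 calf A2065, to 0.70, without the lowest TR3 calf A2024. With sex left out of the fit, the value was 0.58 (SE 0.17). A gene chosen for the smallest p of this difference is unlikely to rest on 1 calf, so this range lends the difference no support.

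TR2 vs. TR1 compared 2 groups of which neither entered the contrast behind the choice. The difference was smaller than its SE, with a log2 fold change of 0.048 (SE 0.16; adjusted p = 0.981, edgeR's quasi-likelihood test with Benjamini-Hochberg adjustment). The direction turned with library size in place of TMM, to -0.061. Of all genes tested, 6.15% had an unadjusted p under 0.05 in this comparison.

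The level was higher by 0.14 on the log2 scale for each year of dam age (SE 0.049). Dam age and treatment group were estimated in the same fit, and TR3 dams were the youngest on average. A positive slope therefore raises the adjusted difference of TR3 vs. CTR on which the gene was chosen, and the slope is given with no test.

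The mean level was 3.03 CPM in the 9 calves of 5-year-old dams, 3.22 CPM in the 13 calves of 6-year-old dams and 3.91 CPM in the 5 calves of 7-year-old dams. It was 3.85 CPM in the 8 calves of 8-year-old dams and 3.31 CPM in the 3 calves of 9-year-old dams. The means did not increase steadily, and the oldest class held only 3 calves. The groups were spread unevenly over these ages. No CTR calf had a 5-year-old dam, compared with 4 of the TR3 calves, and the only age class with at least 3 calves of both groups was 6 years. There the 5 CTR calves lay between 2.08 and 2.91 CPM and the 3 TR3 calves between 3.52 and 4.58 CPM. The 3 TR1 calves of that class, at 2.45 to 4.17 CPM, overlapped both. At 7 years, the only TR3 calf, at 3.55 CPM, lay between the 2 CTR calves, at 2.43 and 4.09 CPM. At 8 years, the only TR3 calf, at 6.00 CPM, lay above the 2 CTR calves, at 2.93 and 3.12 CPM.

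**Figure D2:**
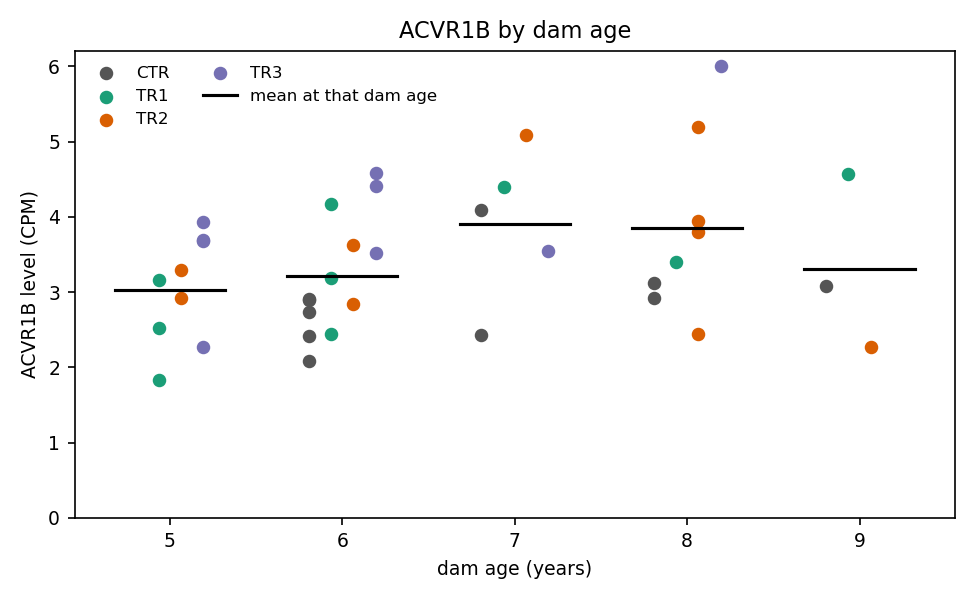
ACVR1B level in CPM (vertical axis) against dam age in years (horizontal axis), 1 point per calf, coloured by treatment group and shifted sideways by group, with a black line at the mean of each age. The means run from 3.03 CPM at 5 years to 3.91 CPM at 7 years and 3.31 CPM at 9 years, and calves of every age overlap.

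Sex was the other covariate. Females ranged from 1.83 to 6.00 CPM (median 3.32, n = 14) and males from 2.08 to 5.19 CPM (median 3.24, n = 24), so that the male range lay within the female range. Adjusted for dam age and group, females were lower, with a log2 fold change of -0.15 (SE 0.13), again with no test. The difference was close to its SE.

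The mean level by sex differed in direction between the groups. In CTR, females were at 2.92 CPM (n = 4) and males at 2.83 CPM (n = 6), and in TR2 at 3.34 (n = 3) and 3.63 CPM (n = 7). In TR1, the only 2 females were at 1.83 and 2.53 CPM, and the 7 males at a mean of 3.62 CPM. In TR3, the 5 females were at a mean of 4.23 CPM and the 4 males at 3.62 CPM. The test of the interaction between sex and treatment did not pass for ACVR1B (F = 1.21, adjusted p = 0.635, edgeR's quasi-likelihood test over 3 terms). An interaction would have added to the spread in the fit behind the choice. The choice thus favoured genes without one, and no conclusion is drawn from this outcome. Of all genes, 0.617% passed, or 80. That count fell to 2 without the TR1 female A2052 and rose to 1516 without the other TR1 female, A2047. With 2 females in TR1, a difference between the sexes in that group rests on those 2 calves.

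The other genes of the pathway were taken from a list of 91 ligands, extracellular regulators, receptors, SMADs with their regulators, and target genes. Gene symbols were known here only for the 2881 gene IDs that the study's supplementary tables name, most of which were selected on these same libraries. With these symbols 31 of the 91 genes were found, all of which passed the filter. The 31 genes are therefore not an unselected sample of the pathway. ACVR2A, ACVR2B, SMAD2, SMAD3 and SMAD4, which stand directly beside ACVR1B in the signal, were among those not matched and were not analysed here.

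After adjustment over all genes, none of the 31 passed in TR1, TR2 or TR3 vs. CTR by edgeR's quasi-likelihood test, and 0% of all genes passed in each. DESeq2 also called none of the 31, with 1, 8 and 0 of them at an unadjusted p under 0.05. The share of all genes by DESeq2 is not given here, so these 3 counts have no background beside them. With edgeR at an unadjusted p under 0.05, there were 1 of 31 in TR1 vs. CTR, 7 of 31 in TR2 vs. CTR and 0 of 31 in TR3 vs. CTR. The corresponding shares of all genes were 2.55%, 8.34% and 1.35%. With 1 calf left out, the count in TR2 vs. CTR ranged from 3, without CTR calf A2034, to 10, without A2066 of TR2 or A2091 of CTR. Of all genes, 836 had such a p without A2034, 1253 without A2066 and 1351 without A2091, against 1081 with all calves. The count was 4 without A2023 or A2100 of TR2, beside 809 and 692 of all genes. It was also 4 without A2038 or A2041 of CTR, beside 1025 and 852. Over the 31 genes, the median log2 fold change was 0.036 for TR1, 0.28 for TR2 and 0.041 for TR3 vs. CTR, beside medians over all genes between -0.0093 and 0.0075. In TR3 vs. CTR, where ACVR1B had its highest level, 18 of the 31 genes had a positive and 13 a negative log2 fold change.

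**Figure D3:**
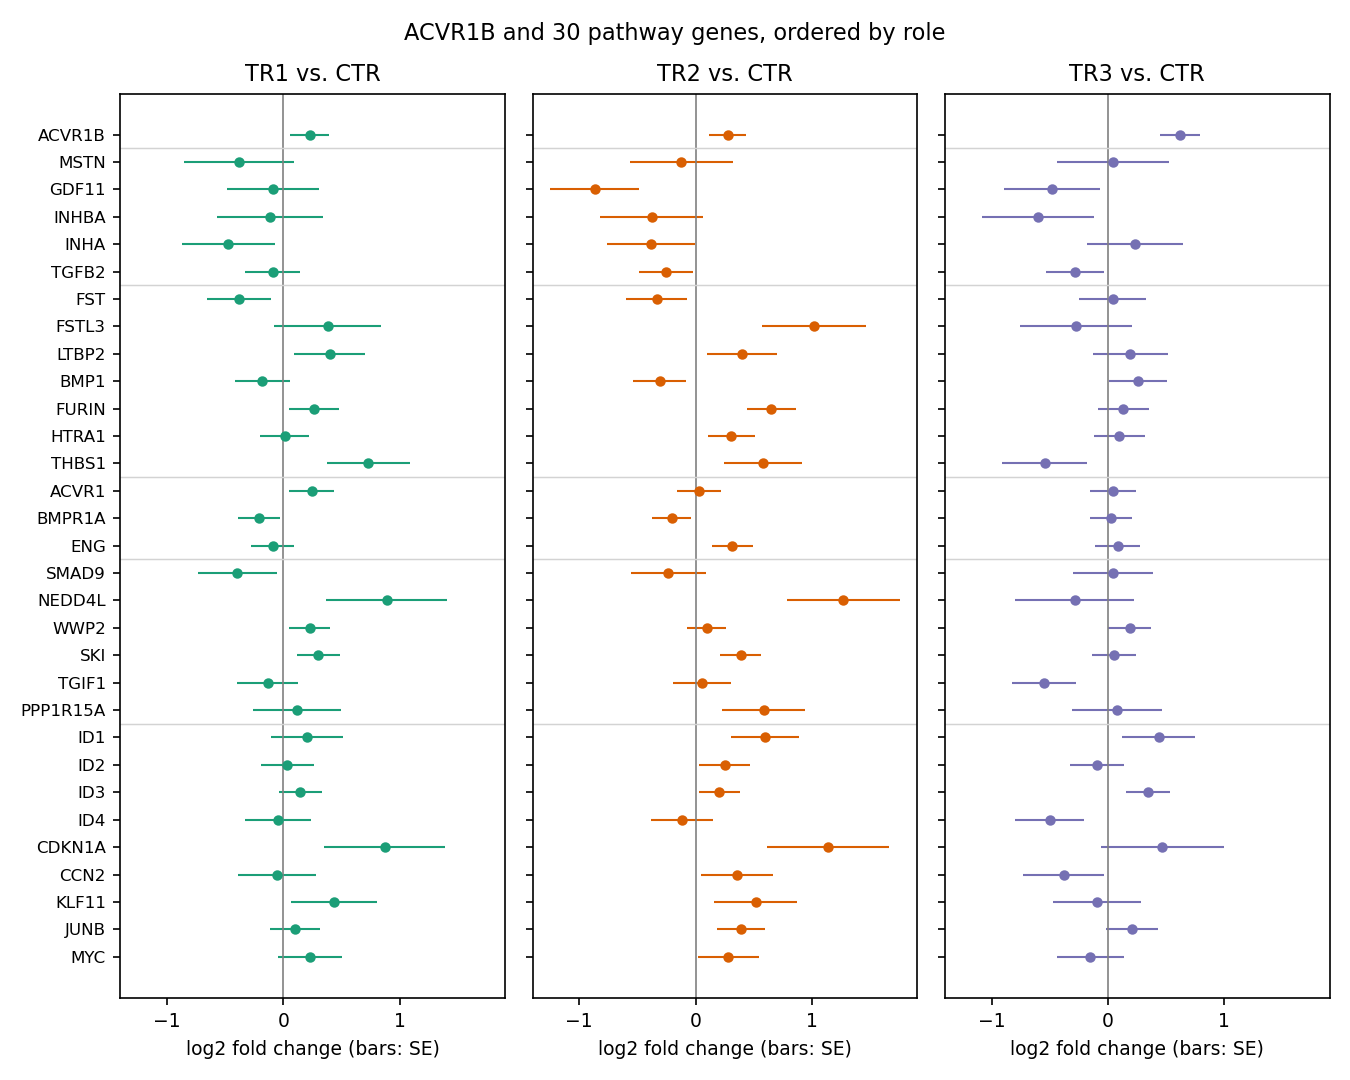
Log2 fold change with SE (horizontal axis) of ACVR1B and 30 of the 31 pathway genes (rows) in TR1, TR2 and TR3 vs. CTR, with grey lines between ligands, extracellular regulators, receptors, SMADs with regulators, and targets. ACVR1B stands at 0.23, 0.28 and 0.62, and the 31 genes have medians of 0.036, 0.28 and 0.041.

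Among the ligands, MSTN, which encodes myostatin, was counted in all calves and overlapped between all groups. Its level ranged from 5.23 to 29.6 CPM in CTR (median 16.1), from 0.158 to 23.4 CPM in TR1 (median 13.9), from 1.83 to 30.2 CPM in TR2 (median 13.1) and from 3.73 to 25.5 CPM in TR3 (median 13.7). The lowest MSTN level was that of TR1 calf A2052. GDF11, a close relative of myostatin, ranged from 0.956 to 5.28 CPM in CTR (median 2.04) and from 0.917 to 1.97 CPM in TR2 (median 1.34). Its log2 fold change in TR2 vs. CTR was -0.87 (SE 0.38; unadjusted p = 0.0294, adjusted p = 0.580, edgeR), which did not pass. Without CTR calf A2041 it was -0.65 (unadjusted p = 0.0957, edgeR).

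The inhibin and activin subunits overlapped between groups. INHA, which encodes the inhibin alpha subunit, an antagonist of activin when joined to a beta subunit, had medians of 132, 85.1, 87.7 and 158 CPM in CTR, TR1, TR2 and TR3, with ranges that overlapped in all groups. INHBA, the subunit that forms activin A, was close to 0, with medians between 0.236 CPM in TR3 and 0.607 CPM in CTR and 1 calf at 0. TGFB2, a ligand of the TGF-beta receptors, had medians from 3.60 CPM in TR3 to 4.52 CPM in CTR. None of the 5 ligand genes passed the test in any comparison with CTR, and the log2 fold changes of MSTN, GDF11 and INHBA each turned direction in at least 1 comparison between alternatives.

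Of the extracellular inhibitors, FST encodes follistatin. Its medians were 5.37, 4.65, 3.93 and 5.81 CPM in CTR, TR1, TR2 and TR3, and all groups overlapped. FSTL3, a follistatin-like antagonist of activin and myostatin, ranged from 1.07 to 3.45 CPM in CTR (median 2.21) and from 1.04 to 24.9 CPM in TR2 (median 2.19). Its log2 fold change in TR2 vs. CTR was 1.02 (SE 0.45; unadjusted p = 0.0290, adjusted p = 0.580, edgeR), while the group medians were almost equal. The highest TR2 calf, A2023, stood at 24.9 CPM, and no other TR2 calf exceeded 8.50 CPM. Without A2023 the log2 fold change was 0.41 (unadjusted p = 0.276, edgeR).

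FURIN, a protease that cleaves the precursors of these ligands, ranged from 31.6 to 53.4 CPM in CTR (median 46.4) and from 43.0 to 133 CPM in TR2 (median 56.1). Its log2 fold change of 0.65 in TR2 vs. CTR (SE 0.21; unadjusted p = 0.00363, adjusted p = 0.497, edgeR) had the smallest p of the 31 genes there. Without TR2 calf A2099 it was 0.47 (unadjusted p = 0.0166, edgeR), the lowest value with 1 calf left out. A gene with the smallest p is unlikely to rest on 1 calf, and no such fit passed adjustment. BMP1, a protease that frees myostatin and GDF11 from their latent complexes, had medians between 15.2 CPM in TR2 and 23.4 CPM in TR3. HTRA1, a secreted serine protease, had medians from 44.6 CPM in TR3 to 57.6 CPM in TR2. LTBP2, a matrix protein of the family that binds latent TGF-beta, had medians from 1.17 CPM in CTR to 2.05 CPM in TR3. These 3 genes overlapped between all groups.

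THBS1, which encodes thrombospondin 1, an activator of latent TGF-beta, was the only one of the 31 genes with an unadjusted p under 0.05 in TR1 vs. CTR. It ranged from 4.70 to 8.58 CPM in CTR (median 5.91) and from 4.54 to 65.1 CPM in TR1 (median 6.92). The log2 fold change was 0.73 (SE 0.36; unadjusted p = 0.0471, adjusted p = 1.00, edgeR). The 2 TR1 females, at 23.4 and 65.1 CPM, were the only TR1 calves above 8.65 CPM. Without A2052, the higher of them, the log2 fold change was 0.27 (unadjusted p = 0.346, edgeR). THBS1 was also the only one of the 31 genes with an unadjusted p under 0.05 for sex, at a log2 fold change of 0.63 in females vs. males (SE 0.25; adjusted p = 0.646, edgeR), where 6.61% of all genes had one and 0.0309% passed after adjustment. Without A2052, none of the 31 had an unadjusted p under 0.05 for sex, beside 1443 of all genes, against 857 with all calves.

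Besides ACVR1B, 3 receptors were matched. ACVR1 and BMPR1A encode type I receptors that signal mainly to the BMP branch of SMADs, and ENG encodes endoglin, a co-receptor of endothelial cells. ACVR1 had medians of 7.08, 9.05, 7.32 and 7.52 CPM in CTR, TR1, TR2 and TR3. BMPR1A had medians of 98.5, 73.5, 88.9 and 84.1 CPM in the same order, and ENG of 32.9, 34.9, 44.2 and 36.4 CPM. None of the 3 receptors followed the order of the groups seen for ACVR1B, and their log2 fold changes in TR3 vs. CTR lay between 0.028 and 0.085. In TR2 vs. TR1, ENG had a log2 fold change of 0.41 (SE 0.18; unadjusted p = 0.0324, adjusted p = 0.799, edgeR). Without TR2 calf A2023 it was 0.25 (unadjusted p = 0.162, edgeR). In that comparison 2 of the 31 genes had an unadjusted p under 0.05, beside 6.15% of all genes, or 797. Without A2023 there were 0 of the 31, beside 533 of all genes. Without TR1 calf A2052 there were 6, beside 1355 of all genes.

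Within the cell, 2 of 6 SMAD genes and SMAD regulators had an unadjusted p under 0.05 in TR2 vs. CTR. NEDD4L, a ubiquitin ligase that acts on phosphorylated SMAD2 and SMAD3, ranged from 19.8 to 38.7 CPM in CTR (median 28.7) and from 19.9 to 295 CPM in TR2 (median 32.7), with a log2 fold change of 1.27 (SE 0.49; adjusted p = 0.545, edgeR). That fold change rested on TR2 calf A2099, at 295 CPM, with the next TR2 calf at 67.4 CPM, and without A2099 it was 0.29 (SE 0.35; unadjusted p = 0.408, edgeR). SKI, a co-repressor that binds SMAD proteins, ranged from 23.2 to 48.1 CPM in CTR (median 36.9) and from 33.7 to 76.5 CPM in TR2 (median 42.7), with a log2 fold change of 0.39 (SE 0.18; adjusted p = 0.589, edgeR). Without A2099 the log2 fold change of SKI was 0.28 (unadjusted p = 0.108, edgeR). SMAD9, WWP2, TGIF1 and PPP1R15A had no unadjusted p under 0.05 in any of the 3 comparisons with CTR.

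Of the 10 target genes, CDKN1A, a cell cycle inhibitor, ranged from 13.0 to 77.6 CPM in CTR (median 43.7) and from 14.3 to 294 CPM in TR2 (median 35.8). Its log2 fold change in TR2 vs. CTR was 1.14 (SE 0.52; unadjusted p = 0.0358, adjusted p = 0.589, edgeR). The TR2 median was thus below that of CTR although the fold change was positive, and the TR2 calves A2023 and A2099, at 294 and 231 CPM, lay far above the CTR range. The log2 fold change was 0.58 without A2023 (unadjusted p = 0.253, edgeR) and 0.72 without A2099 (unadjusted p = 0.156, edgeR). In TR3 vs. CTR, 4 of the 10 targets had a positive and 6 a negative log2 fold change, with a median of -0.094.

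Of 14 muscle effectors listed, 10 were matched: the atrophy ligases FBXO32 and TRIM63, the transcription factors FOXO1 and FOXO3 that control them, the myogenic factors MYOD1, MYOG, MYF5 and MYF6, the satellite cell factor PAX7, and the growth factor receptor IGF1R. None passed after adjustment in any comparison with CTR by edgeR. Their median log2 fold change was 0.23 for TR1, 0.32 for TR2 and -0.17 for TR3 vs. CTR. Without adjustment, only FOXO3 in TR2 vs. CTR had a p under 0.05 by edgeR, with a positive log2 fold change, beside 8.34% of all genes. FOXO3 ranged from 3.35 to 8.67 CPM in CTR (median 8.01) and from 4.27 to 49.9 CPM in TR2 (median 7.78). Its TR2 median was thus below that of CTR although the fold change was positive. A fit of FOXO3 without the highest TR2 calf is not given here. DESeq2 called none either, with 1, 2 and 0 of the 10 before adjustment, again given without its share over all genes.

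The tests within groups asked whether calves with more ACVR1B than others of their group also had more or less of these genes. Group, sex and dam age were removed from the log2 CPM by regression, and Pearson's r and Spearman's rho were computed over the 38 calves for 45 genes, with 100000 permutations each. The permutations treated the 38 values left after the removal as free, although the removed terms tie them together. The permutation p after removal are therefore too small, here and below. Of the 45 genes, 29 had a positive and 16 a negative r. None passed after adjustment over the 45 (smallest adjusted p = 0.351 for r), and 5 had an unadjusted p under 0.05. The shares of all genes with such a p or with a positive r were not computed, so these counts are not read as an excess. Most of the other genes tested had an r between -0.389 and 0.391, the range described below. Of the 45 genes, only MSTN lay outside that range.

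MSTN had the highest r of the 45, at 0.41 (permutation p = 0.0101, adjusted p = 0.351), with a rho of 0.50 (permutation p = 0.00152, adjusted p = 0.0684). Without the 2 calves farthest from the median of ACVR1B the r was 0.47. The calves that moved it most were A2052, whose MSTN count was 3 and without which the r was 0.52, and A2100 of TR2, without which it was 0.30. Scaled differently, with library size in place of TMM, it was 0.20. The correlation between receptor and ligand was thus positive under each of these settings, and did not pass over the 45 genes.

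Others with an unadjusted p under 0.05 were MDM2, the ubiquitin ligase of p53, at r = 0.35 (permutation p = 0.0313), FOXO1 at r = -0.37 (permutation p = 0.0198) and CCN2, a matrix-associated growth factor and SMAD target, at r = -0.32 (permutation p = 0.0490). All 3 had an adjusted p of 0.351. Their rho was 0.38, -0.33 and -0.26 in that order, with Spearman permutation p of 0.0182, 0.0454 and 0.119. Without the 2 farthest calves the r was 0.42 for MDM2, -0.27 for FOXO1 and -0.40 for CCN2.

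By role, the r of the 3 other receptors was 0.10 for ACVR1, 0.27 for BMPR1A and -0.29 for ENG. Follistatin had an r of 0.13 and FSTL3 of -0.30. Of the 10 target genes, 7 had a positive and 3 a negative r, and the 10 muscle effectors lay between -0.37 and 0.28, with 6 positive and 4 negative. The genes of a role thus did not share a sign.

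**Figure D4:**
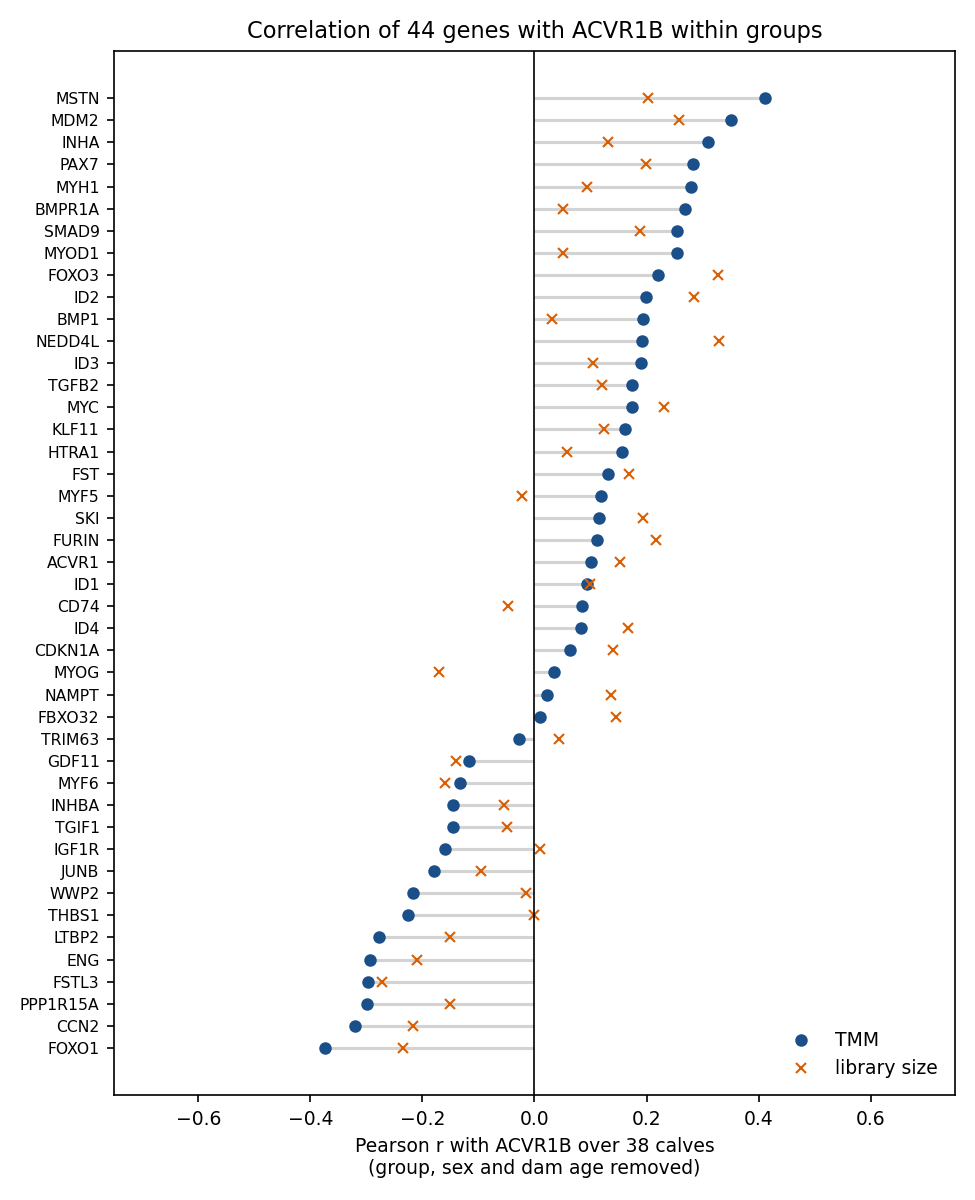
Pearson r with ACVR1B (horizontal axis) of 44 of the 45 genes (rows) over 38 calves after removal of group, sex and dam age, with dots for TMM-scaled values and crosses for library size. The dots run from -0.37 for FOXO1 to 0.41 for MSTN, and the cross of MSTN is at 0.20.

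Of the 7 marker lists, the summed markers of muscle fibres and of red cells had the highest r with ACVR1B within groups. The summed level of 6 muscle fibre markers (ACTA1, CKM, DES, MYH1, MYH2 and TNNT3, of 8 listed) had an r of 0.42 (permutation p = 0.00875, adjusted p = 0.0413 over 7 marker lists) and a rho of 0.50 (adjusted p = 0.0109). The r stayed between 0.37 and 0.47 with any calf left out. The sum of the red cell markers HBB, HBA and ALAS2 had an r of 0.41 (permutation p = 0.0118, adjusted p = 0.0413) and a rho of 0.34 (adjusted p = 0.115). The lists for satellite cells, immune cells, fibroblasts, fat and endothelium had r between -0.20 and 0.20 and did not pass. Because the permutations ignored the removed terms, these p are too small, and an adjusted permutation p of 0.0413 is not read as passing. The marker lists were correlated after earlier results had been seen, and their part in the ACVR1B levels was not tested. They were correlated on the TMM scale only, not with library size.

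By group, the muscle fibre sum had medians of 108319, 85561, 106074 and 113324 CPM in CTR, TR1, TR2 and TR3, and its range in TR1 (40535 to 137904 CPM) was the widest. No muscle fibre marker was at 0 in any calf. The red cell sum had medians of 88.2, 59.7, 44.0 and 39.3 CPM in the same order, with ranges of 8.60 to 452 CPM in CTR and 20.9 to 303 CPM in TR3. ALAS2 was at 0 in 1 calf. The red cell order thus ran opposite to that of ACVR1B over the groups, while its correlation within groups was positive.

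The correlation of ACVR1B with sequencing depth was close to 0, and that with the make-up of the library was larger. Across the 38 calves, the r of ACVR1B was 0.034 with total counts (rho 0.036, permutation p = 0.839), -0.27 with the TMM factor (rho -0.28, permutation p = 0.106) and 0.37 with the share of counts held by the 10 highest genes (rho 0.36, permutation p = 0.0196, adjusted p = 0.0588 over 3 measures). After removal of group, sex and dam age, the r with that share was 0.41 (adjusted permutation p = 0.0298). That p is too small, because the permutations ignored the removed terms, and it is not read as passing. With ACVR1B scaled to library size, and nothing removed, the r with that share was 0.11 (adjusted permutation p = 0.800), against the 0.37 above.

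Over all 12963 other genes tested, the r with ACVR1B within groups had a median of -0.0098, and 95% of the genes lay between -0.389 and 0.391. Among the 2880 of them with a symbol, the genes most like ACVR1B were BCL9L, a co-activator of beta-catenin, at r = 0.62, SETD3, the actin histidine methyltransferase, at r = 0.57, CCDC88C, a Dishevelled-binding protein, at r = 0.56, PLCE1, a phospholipase C, at r = 0.56, and DBP, a clock-controlled transcription factor, at r = 0.53. The lowest r was that of SMPDL3A, a phosphodiesterase related to acid sphingomyelinase, at -0.67, which was also the lowest of all genes tested. NR4A3, a nuclear receptor of early response, was at -0.61 and CREB5, a transcription factor, at -0.58. These genes were picked as the extremes of many, so their r has no test.

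With any calf left out, the r of BCL9L stayed between 0.55 and 0.67 and that of SMPDL3A between -0.75 and -0.62. Genes picked for the most extreme r are unlikely to rest on 1 calf, so these ranges lend the correlations no support. Without the removal of group, sex and dam age, BCL9L was at 0.71 and SMPDL3A at -0.35. DBP was at 0.34 without the removal and at 0.36 without the 2 calves farthest from the median of ACVR1B.

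**Figure D5:**
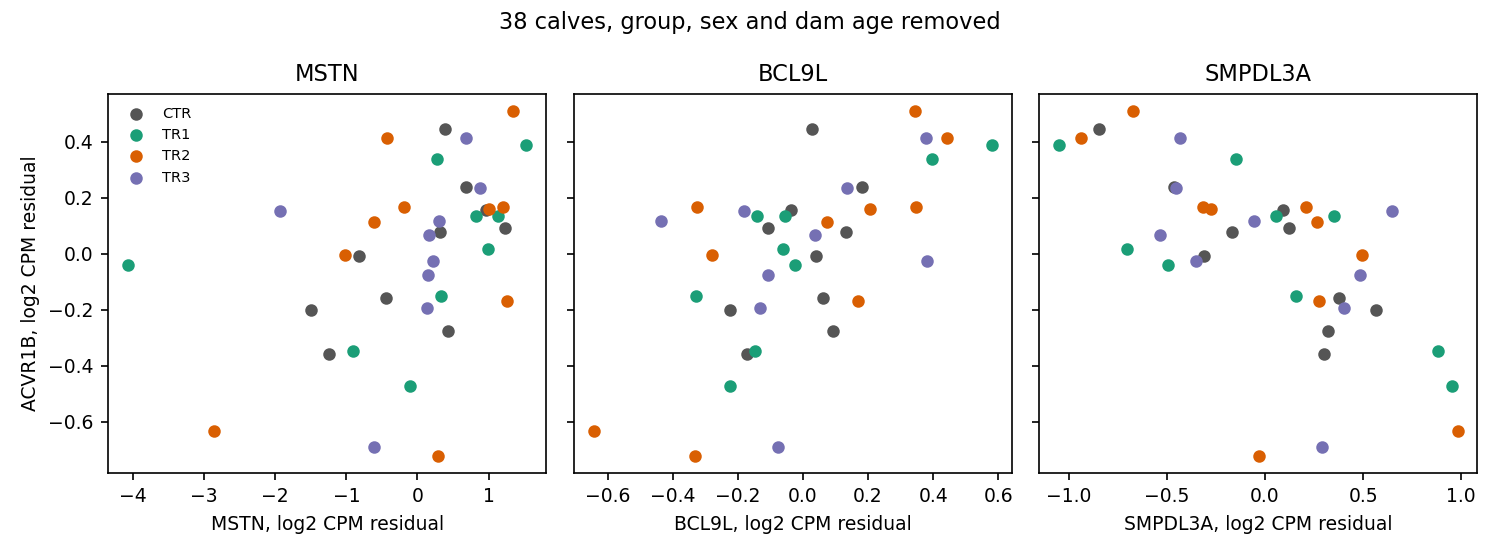
Log2 CPM of ACVR1B (vertical axis) against that of MSTN, BCL9L and SMPDL3A (horizontal axes, 1 panel each) after removal of group, sex and dam age, 1 point per calf, coloured by group. The r is 0.41, 0.62 and -0.67, and the calf far to the left in the MSTN panel is A2052.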

How the data were processed

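The libraries were strand-specific, poly-A-enriched RNA libraries of LD muscle. The authors mapped the reads to ARS-UCD1.2 with STAR 2.7.3a and counted reads by Ensembl gene. What was deposited are raw counts of 27607 genes in 38 calves, with 0 columns left unused. The strand setting of the counting is not given in the sources used here.

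Of 21038 genes with a count, edgeR's filterByExpr (sex and group) kept 12964. With edgeR 4.0.16, quasi-likelihood models were fitted to TMM-normalized counts of all 38 calves with dam age, sex and group, and adjusted by Benjamini-Hochberg over all 12964 genes at 0.05. The SE is the size of the log2 fold change over the square root of its F. TMM factors ranged from 0.887 to 1.35, the highest in TR1 calf A2052. Log2 CPM for correlations had a prior count of 2. The edgeR test of TR2 vs. TR1 was also run on simulated counts, with its outcome not given here, and the other statistics were not. The planned tests of dam age and sex for ACVR1B are given as values with no p, since the choice of the gene used the same fit.

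The gene, the lists and the tests were chosen with earlier results of these data known. Named genes are ACVR1B, the matched pathway and muscle effector genes, and the 5 highest and 3 lowest named genes by r within groups. Alternatives were DESeq2 1.42.0, library size, no filter, a robust fit, a fit to the 2 groups alone, other treatments of the covariates (dropping sex or all of them, dam age in classes), and the omission of single calves. R 4.3.3 and Python 3.11.15 (numpy 2.4.6, scipy 1.17.1, pandas 2.3.3, matplotlib 3.10.9) were used. Gene symbols came from the study's supplementary tables, whose authors' comparison values were not used. A single gene of the lists is not reported here by name, though it stays in the counts.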

Additional observations from a re-analysis of the deposited data

Results flagged for a closer look

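In 14 of 64 combinations of gene and treatment group, 1 calf stood apart from the others of its group by Dixon's criterion. The genes were ACVR1B, the ligands, the extracellular regulators and the receptors. Chance gives about 1 in 20 only for normally distributed values, and the CPM were not transformed. The share over all genes was not computed, so 14 of 64 is not read as an excess. For ACVR1B the calf that stood apart was CTR calf A2042 at 4.09 CPM, with the next CTR calf at 3.12 CPM. ACVR1 stood at 15.6 CPM in TR3 calf A2033, with the next at 9.47 CPM. ENG stood at 61.4 CPM in CTR calf A2091 and at 80.1 CPM in TR2 calf A2023. FST stood at 13.5 CPM in CTR calf A2038 and at 10.7 CPM in TR1 calf A2032. FSTL3 stood at 8.08 CPM in TR1 calf A2047, at 24.9 CPM in TR2 calf A2023 and at 5.74 CPM in TR3 calf A2033. FURIN stood at 153 CPM and THBS1 at 65.1 CPM in TR1 calf A2052. INHBA stood at 1.48 CPM in CTR calf A2098, LTBP2 at 3.58 CPM in CTR calf A2096 and TGFB2 at 11.6 CPM in TR2 calf A2099. In all 14 the calf that stood apart was the highest of its group.

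The interaction of sex and treatment passed for 3 genes of the lists by edgeR's quasi-likelihood test: THBS1 (adjusted p = 0.00617), NEDD4L (adjusted p = 0.00994) and the atrophy ligase TRIM63 (adjusted p = 0.0103). NEDD4L stood at 30.1 and 358 CPM in the 2 TR1 females and between 19.8 and 35.1 CPM in the 7 TR1 males. TRIM63 stood at 169 and 1148 CPM in these females and between 82.7 and 176 CPM in these males. Without TR1 calf A2052, the adjusted p was 0.633 for THBS1, 0.766 for NEDD4L and 0.838 for TRIM63, and 2 genes of all passed in place of 80. Without the other TR1 female, A2047, the adjusted p was 0.000183 for THBS1, 5.91e-05 for NEDD4L and 5.07e-05 for TRIM63, and 1516 genes passed. The count was 48 without A2099, 51 without A2057 and 131 without A2023. For ACVR1B, the adjusted p of the interaction was 0.843 without A2052, and this outcome too is partly fixed by the choice of the gene.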

How the results depend on the processing

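With each calf left out in turn, the log2 fold change of ACVR1B ranged from 0.18 to 0.29 in TR1 vs. CTR, from 0.22 to 0.36 in TR2 vs. CTR, from 0.54 to 0.70 in TR3 vs. CTR, and from -0.20 to -0.092 in females vs. males. In TR3 vs. CTR the other alternatives gave 0.46 to 0.66. In TR2 vs. TR1 it ranged from -0.012 to 0.11 with a calf left out and was -0.061 with library size, with adjusted p from 0.919 to 1.00. No pathway gene passed adjustment in any comparison of groups or sexes, and no correlation of the 45 did, under any alternative run. The number of pathway genes with an unadjusted p under 0.05 in TR2 vs. CTR was 2 with dam age as a factor and 3 with the 2 groups alone, against 7. The shares of all genes under these alternatives are not given here. The interaction of sex and treatment was called by DESeq2 for 379 genes and for 5 of the 31, against 80 and 2 by edgeR. With dam age as a factor, the adjusted p of the interaction was 0.0502 for NEDD4L and 0.0687 for TRIM63. Among library measures, the r of the share of the 10 highest genes was 0.41 after removal of group, sex and dam age. Its adjusted permutation p of 0.0298 is too small, since the permutations ignored the removed terms, and is not read as passing. The r with total counts was -0.15 after that removal and -0.047 with library size, and that with the TMM factor 0.043 with library size, each of the opposite sign to the main value. The cause of these changes was not tested. No paired analysis was made, since each library came from a different calf. The paper's methods describe assignment of cows in randomized blocks, and the labels used here name no blocks, so blocks did not enter the fits. ACVR1B had 27 to 86 counts per calf, and counting error alone corresponded to 27.1% of its variance over all calves. The smallest difference that could be detected was not computed.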
